A study of Homo sapiens with 4 samples.

Results

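The genes described are those of the retinoid receptors and of a corepressor they recruit: RARA, RARB, RARG, RXRA, RXRB, RXRG and NCOR1. The members are the 7 genes themselves and the PML peaks whose nearest gene is 1 of them, 78 of the 68937 peaks in the list. They were selected on the gene name given to each peak with these data in view, and RXRA was chosen by its number of peaks, so all counts, scores and ranks are descriptions and carry no test. The peaks come from 2 PML ChIP libraries and 2 input libraries of MDA-MB-231, an established human triple-negative breast cancer cell line, with an antibody against PML in the ChIP libraries and the inputs as background for peak calling. The cells were cross-linked and received no treatment that the labels name, and the duplicates were merged before the list was made. The table has no replicate error, read depth or expression value, and the identity of the line was not checked from it. Coordinates are hg38.

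Retinoic acid receptors (RARs) are nuclear receptors that bind DNA as heterodimers with retinoid X receptors (RXRs). Without ligand the pair recruits corepressors such as NCOR1, and with retinoic acid it exchanges them for coactivators. PML, a scaffold protein of the nuclear bodies named after it, is fused to RARA in acute promyelocytic leukaemia, where the fusion protein represses retinoic acid target genes. RXRs also pair with other nuclear receptors, among them those for thyroid hormone, vitamin D and fatty acids.

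Peaks were spread very unevenly over the 7 genes. RXRA was the nearest gene of 70 peaks and RARA of 5. RARG, RXRB and NCOR1 had 1 peak each, and RARB and RXRG had none. A promoter peak, centred within 1000 bp of a TSS, was present for RARA, RXRA, RXRB and NCOR1. These are 4 of the 5 members named in the table (80%), against 78.6% of the 13948 protein-coding genes named there. Of the 7 members, 57.1% had such a peak, against 54.5% when all 20037 protein-coding genes of RefSeq are the base. A peak of any class named 5 of the 7, against 69% of those genes, and 5 of the 7 had a peak inside the gene, against 63.8%. These counts lie near the background, so the presence of a peak is not a result about the members.

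Of the 15 promoter windows of the members, 6 are printed 5′ to 3′ in the direction of transcription. Each runs from 250 bases before to 50 after the TSS (RefSeq, GRCh38.p14). Those of RXRA, RXRB, NCOR1 and RARA overlap a peak, in RARA by only 27 bases, and that of RARB does not. They are examples, and no window of RXRG, the other member without peaks, is printed. In the windows of RXRA, capitals mark the GC box GGGCGG on either strand, bound by SP-family factors, and the ETS core CCGGAA. In RXRB they mark the GC box and ATGGCNGC, the YY1 core, and in NCOR1 the YY1 and ETS cores. In RARA they mark the GC box and AGGTCA, the hexamer that nuclear receptors bind. In RARB they mark the DR5 retinoic acid response element, a direct repeat of variants of that hexamer, here GGTTCA and AGTTCA, with a 5-base spacer. Overlapping matches form 1 run of capitals.
RXRA, the first TSS (chr9:134326205-134326504, plus strand): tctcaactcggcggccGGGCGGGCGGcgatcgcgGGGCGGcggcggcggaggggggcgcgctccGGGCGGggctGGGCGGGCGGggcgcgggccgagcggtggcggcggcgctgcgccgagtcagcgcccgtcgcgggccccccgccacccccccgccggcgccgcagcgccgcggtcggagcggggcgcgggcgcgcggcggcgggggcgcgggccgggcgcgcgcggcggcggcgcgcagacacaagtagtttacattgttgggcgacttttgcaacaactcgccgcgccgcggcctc
RXRA, the second TSS (chr9:134379045-134379344, plus strand): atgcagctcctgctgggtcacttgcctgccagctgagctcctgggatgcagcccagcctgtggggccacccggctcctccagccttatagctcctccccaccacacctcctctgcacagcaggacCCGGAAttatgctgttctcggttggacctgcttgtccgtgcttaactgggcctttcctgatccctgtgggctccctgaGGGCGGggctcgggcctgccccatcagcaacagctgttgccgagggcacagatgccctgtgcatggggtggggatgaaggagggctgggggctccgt
RXRB (chr6:33200616-33200915, minus strand): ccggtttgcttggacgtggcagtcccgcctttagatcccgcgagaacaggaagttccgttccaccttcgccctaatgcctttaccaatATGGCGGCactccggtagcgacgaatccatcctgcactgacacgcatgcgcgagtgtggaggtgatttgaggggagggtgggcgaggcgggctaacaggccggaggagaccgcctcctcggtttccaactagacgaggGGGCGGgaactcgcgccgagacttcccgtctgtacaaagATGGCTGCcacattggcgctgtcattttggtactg
NCOR1 (chr17:16215485-16215784, minus strand): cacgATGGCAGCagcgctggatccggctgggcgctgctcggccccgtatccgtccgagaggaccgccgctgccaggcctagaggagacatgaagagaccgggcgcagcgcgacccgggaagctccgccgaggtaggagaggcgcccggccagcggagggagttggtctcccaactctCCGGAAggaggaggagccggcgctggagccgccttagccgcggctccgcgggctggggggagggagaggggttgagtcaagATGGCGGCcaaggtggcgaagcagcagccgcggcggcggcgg
RARA, the first TSS (chr17:40308930-40309229, plus strand): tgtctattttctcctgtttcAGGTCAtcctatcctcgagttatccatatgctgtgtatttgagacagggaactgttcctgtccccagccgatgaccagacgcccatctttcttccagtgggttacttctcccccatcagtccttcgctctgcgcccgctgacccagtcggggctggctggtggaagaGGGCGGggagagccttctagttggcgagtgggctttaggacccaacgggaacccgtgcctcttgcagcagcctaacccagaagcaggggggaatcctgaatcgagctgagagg
RARB, the promoter with the response element (chr3:25428013-25428312, plus strand): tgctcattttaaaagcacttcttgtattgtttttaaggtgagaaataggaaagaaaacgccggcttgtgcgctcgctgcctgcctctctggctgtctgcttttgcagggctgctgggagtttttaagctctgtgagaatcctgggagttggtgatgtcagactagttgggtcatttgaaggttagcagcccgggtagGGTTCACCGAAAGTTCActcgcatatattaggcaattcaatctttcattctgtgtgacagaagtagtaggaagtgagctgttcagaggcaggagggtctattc

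RXRA lies on chromosome 9 from 134326455 to 134440585 and is 114.1 kb long. Its 70 peaks ran over 204.1 kb, from 10.6 kb before the gene to 79.4 kb after its end. By position, 46 of them were centred inside the gene, 5 before it and 19 after it. Another 6 peaks inside the gene were named for MIR4669, a microRNA gene within RXRA, so 52 peaks lay inside RXRA in all. Peaks covered 40.3% of its bases, against a median of 0.734% over 6269 protein-coding genes of 50 kb or more, of which 5 had a higher share. Neighbouring peaks inside the gene were a median of 684 bp apart, and the longest stretch without one was 8999 bp.

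Of the 5 highest-scoring RXRA peaks, 3 were centred within 1000 bp of a TSS that the table uses, 1 lay just past the gene and 1 in the first intron. Only 1 of these 3, at the second TSS, spans its TSS. The authors' peak score is a whole number on a scale that no source used here states, and over all peaks its lowest value was 13, its median 34 and its highest 5641. The peak over the second TSS, from 134377707 to 134380671, had a score of 181 and was 2964 bp wide. It covered all 300 bases of the second window printed above. The next highest, 139, lay after the gene from 134442318 to 134443850. The peak centred 804 bp past the third TSS, in the 5' UTR of the transcript that starts furthest downstream, had a score of 129. The peak that spans the third TSS, from 134405352 to 134406640, had only 21. The peak just before the first TSS, from 134325669 to 134326272, had 110 and reached over 68 bases of the first window. A peak in the first intron from 134357489 to 134358487 had 114. The next 5 scores were 92, 75, 75, 73 and 69; one of the peaks at 75 lay after the gene, from 134502130 to 134503284, and the others of these 5 lay between the first and the second TSS. The 5 peaks of 100 or more make up 7.14% of the RXRA peaks, against 6.58% of the whole list, so high scores were about as frequent at RXRA as elsewhere.

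**Figure D1:**
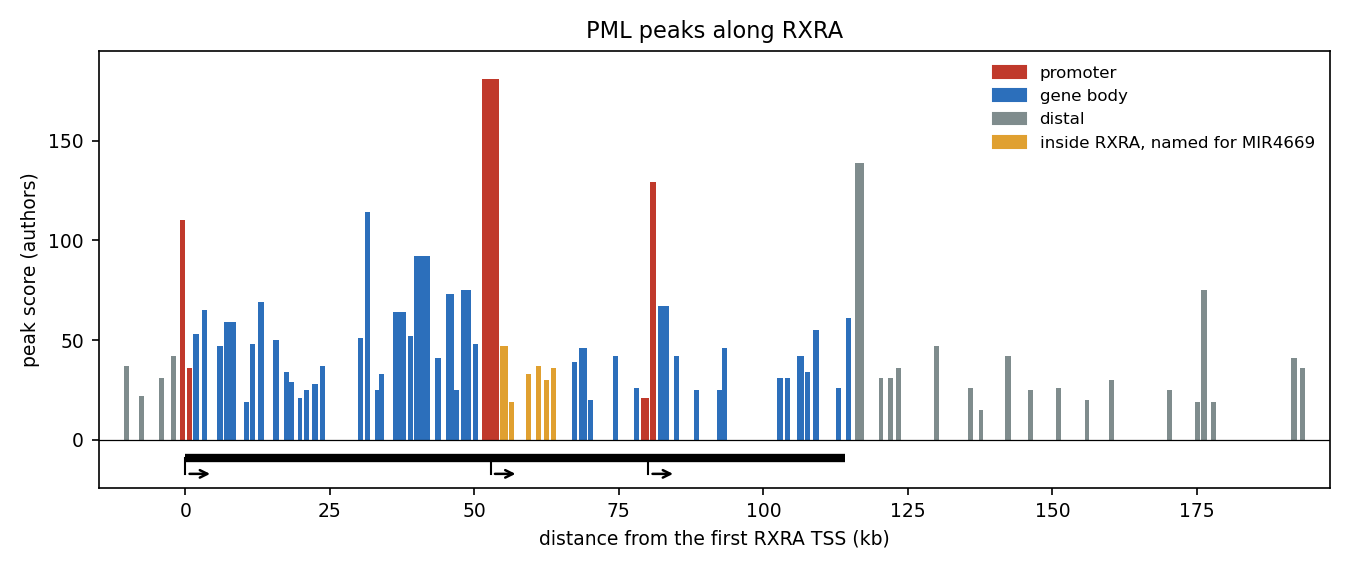
PML peaks along RXRA by distance from its first TSS (kb, x axis) and score given by the authors (y axis); bars stand at the peaks and are drawn at least 0.4% of the axis wide, the black bar is the gene and arrows are the TSSs. The highest bar, at 181, stands over the second TSS, and the gold bars are the 6 peaks inside the gene that are named for MIR4669.

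Of the stretches into which the TSSs and ends divide RXRA, that between the first and the second TSS was the densest. It is 52.8 kb long and held 28 peaks, 5.30 per 10 kb, with a median score of 48; 13 of them scored 50 or more and peaks covered 52.5% of it. Peaks were placed by their centre, so the peak of 181 over the second TSS counts in this stretch, though it spans that TSS. From the second to the third TSS there were 12 peaks in 27.3 kb, 4.40 per 10 kb, and the highest score was 47. From the third TSS to the gene end 12 peaks gave 3.53 per 10 kb, with a highest score of 129. After the gene, 19 peaks lay in 79.4 kb, 2.39 per 10 kb, with a median score of 31. Density and median score were thus both lowest past the gene end.

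Most RXRA peaks were intronic. Introns held 41 peaks, of which 27 lay in the first intron of the transcript that starts at the first TSS, intergenic DNA held 22 and the promoter class 3. The 5' UTR, an exon, the 3' UTR and the transcription end site had 1 peak each. By distance to the TSS, 5 of the 70 were promoter peaks (7.14%, exact Clopper-Pearson 95% interval 2.36 to 15.9%), 43 lay in the gene body (61.4%, 49.03 to 72.8%) and 22 were distal (31.4%, 20.9 to 43.6%). The scores of the promoter peaks were 181, 129, 110, 36 and 21, so both the highest peak of the gene and 1 of the lower ones were at a TSS. Gene body peaks had a median score of 42, against 31 for gene body peaks outside the members. Distal peaks had a median of 31, the same as in the list at large. Intervals cover counting error only, since peaks of 1 gene are not replicates.

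RXRA peaks were wide, and few had a repeat named. Their median width was 689.5 bp, against 435 bp for the whole list, and 5 of the 70 (7.14%) were 2000 bp or wider, against 1.69% of the list. A repeat was named for 3 (4.29%), a simple repeat, an L2 and a MIR element, against 24.8% of the list. A CpG island was named for 3, which is 4.29% against 6.67%.

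Few genes had as many peaks as RXRA. It ranked 12 among all genes and 8 among protein-coding genes by peaks named, after KCNK9 (131), PXDN (85), COL22A1 (80), SDK1 (79), IQSEC1 (78), ADAMTS2 (74) and MROH5 (72). By peaks inside the gene, 26 of 20037 protein-coding genes had more than its 52. Per 10 kb of gene RXRA had 4.56 peaks, against a median of 0.135 over protein-coding genes of 50 kb or more. Of those, ADGRB1 (5.87) and ZC3H3 (4.82), both on chromosome 8, were denser. Among the 1346 genes within 20% of its length the median was 1 peak, and 2 had more than RXRA. These ranks restate why RXRA was chosen and are not evidence about it.

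The neighbourhood of RXRA was also rich in peaks. The 500 kb before the gene held 103 peaks, 2.06 per 10 kb, and the 500 kb after it held 107, 2.14 per 10 kb. The gene itself, with 4.56 per 10 kb, was denser than either 500 kb side. The 10.6 kb just before it, a stretch that starts at the first RXRA peak, held 5 peaks, 4.71 per 10 kb. The 1 Mb bin from 134 Mb on chromosome 9 held 220 peaks, against a median of 13 over 2668 bins with a peak, and 14 bins held more. This bin includes RXRA and all 70 peaks named for it, so its count and rank in part restate why RXRA was chosen. What part the region has in the count at RXRA was not tested.

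**Figure D2:**
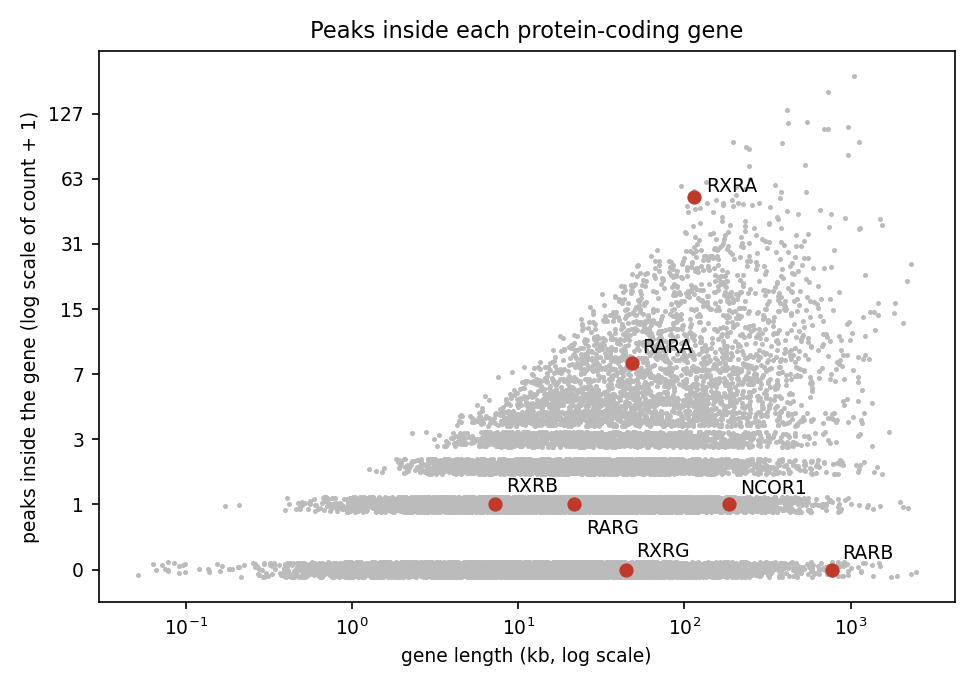
Peaks centred inside each of 20037 protein-coding genes (y axis, log scale of count + 1, with small random vertical shifts for the grey points) by gene length (kb, log scale, x axis); red points are the members. RXRA, with 52 peaks in 114.1 kb, lies near the upper edge of the cloud, while RARB, 768.6 kb long, has none.

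RARA, the fusion partner of PML, was the nearest gene of 5 peaks with scores from 14 to 42 and a median of 36, against a median of 34 over the whole list. The gene lies on chromosome 17 from 40309180 to 40357643, 48.5 kb. The peak at the first TSS, from 40309203 to 40309646, was centred 244 bp past it in intron 1 with a score of 17. It reached over only 27 bases of the printed window. The highest RARA peak, from 40341311 to 40341810, was centred 606 bp before the TSS of a transcript that starts further downstream and had a score of 42. Between them lay intron 1 peaks with scores of 14 (40312125 to 40312642), 36 (40314259 to 40314915) and 36 (40322191 to 40322515). The TSS at 40318245, whose window has 63% G and C bases and 5 GC boxes, had its nearest peak 3330 bp away. Both promoter scores lay below 58, the median of promoter peaks outside the members.

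Other genes took some of the peaks inside RARA. A peak in intron 2 (score 36) was named for the antisense gene RARA-AS1, and peaks in intron 6 (31) and the 3' UTR (26) for GJD3, a connexin gene that follows RARA. Counted by position, RARA held 8 peaks, 1.65 per 10 kb. Of 2035 protein-coding genes within 20% of its length, 5.90% held more, and their median was 1.

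RARB and RXRG had no peak at all, inside the gene or within 50 kb of it. RARB, a retinoic acid target gene as well as a receptor, spans 768.6 kb on chromosome 3 from 24829321 to 25597932. The nearest peaks lay 307.2 kb before it, at a peak named for the thyroid hormone receptor gene THRB (score 36), and 66.2 kb after it, named for TOP2B (75). Of the 122 protein-coding genes within 20% of its length, 22.95% had no peak inside and the median was 2. The DR5 element of its printed promoter, GGTTCACCGAAAGTTCA, starts 53 bases before the TSS, and the nearest peak was 235.9 kb from that TSS. RXRG, an RXR of muscle and brain, spans 44.2 kb on chromosome 1 from 165400922 to 165445126. Its nearest peaks lay 185.7 and 941.2 kb away, and 29.2% of 2046 genes of like length also had none inside. A lack of peaks in this list does not show a lack of PML, since neither the depth nor the calling threshold is known.

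RXRB, the short and widely expressed RXR gene, had the highest-scoring promoter peak after RXRA. The gene lies on chromosome 6 from 33193588 to 33200853 and starts 14 bp from SLC39A7, a zinc transporter gene on the other strand. Its peak, from 33199944 to 33200925, had a score of 98 and covered the printed window whole. The annotation column gives it to the SLC39A7 promoter and the gene column to RXRB, so the peak belongs to the shared promoter. RARG, an RAR best known from skin, spans 21.6 kb on chromosome 12 from 53210569 to 53232209. Its peak, from 53220961 to 53221870 with a score of 31, lay at a CpG island in intron 2, 1053 bp before the TSS of a transcript that starts inside the gene and so just outside the promoter limit. The closest promoter peak inside that limit was the RXRA peak at 804 bp. The TSS at the RARG gene start had its nearest peak 10.3 kb away.

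NCOR1 spans 186.4 kb on chromosome 17 from 16029157 to 16215534. Its single peak, from 16215059 to 16215909, was centred 50 bp from the TSS, had a score of 48 and covered the printed window whole. A separate peak with a score of 68 stood at PIGL, which starts 1676 bp away on the other strand. No other peak lay inside NCOR1; among 872 genes of like length the median was 2 and 55.3% held more than 1.

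**Figure D3:**
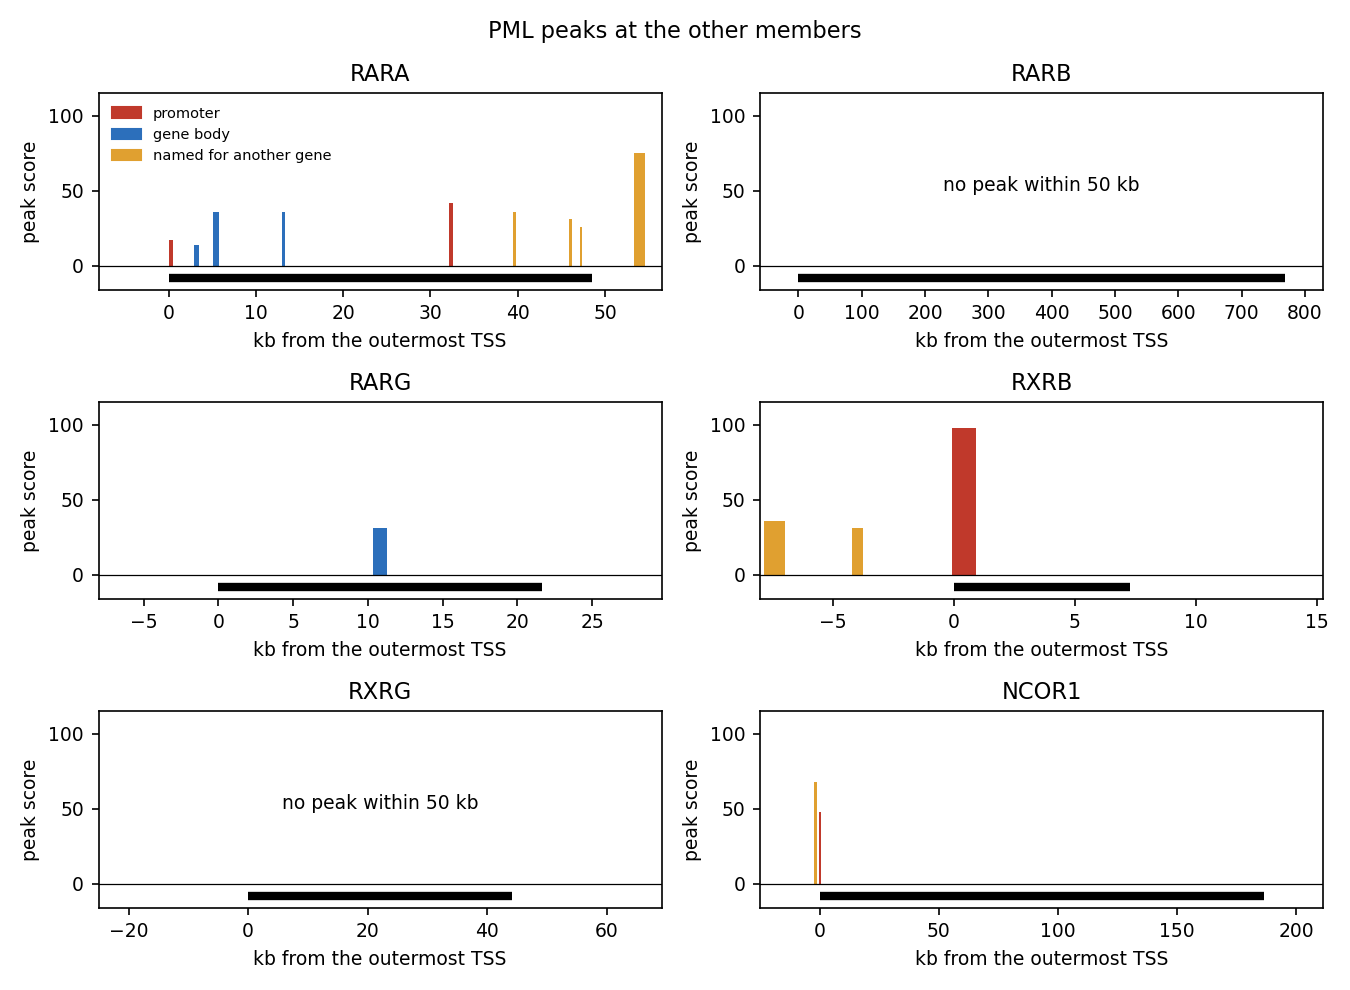
Peaks at the 6 other members by distance from the outermost TSS in the direction of transcription (kb, x axis) and score (y axis); the black bar is the gene, bars are drawn at least 0.4% of the axis wide, and gold bars are peaks named for a neighbouring gene. RARA has peaks along the gene with scores of at most 42, RARG 1 inside it, RXRB and NCOR1 1 at the TSS, and RARB and RXRG none.

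Over all 78 member peaks, 9 were at promoters (11.5%, exact 95% interval 5.41 to 20.8%), 47 in gene bodies (60.3%, 48.5 to 71.2%) and 22 distal (28.2%, 18.6 to 39.5%). All other peaks of the list were at promoters in 19.98%, in gene bodies in 45.1% and distal in 34.9% of cases. The member shares are mainly those of RXRA: without it, 4 peaks were at promoters and 4 in gene bodies. The 162 peaks named for 42 other nuclear receptor genes were at promoters in 23.5%, in gene bodies in 46.9% and distal in 29.6% of cases. Promoter peaks of members had a median score of 48, against 58 for all other promoter peaks, and their gene body peaks 41, against 31.

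**Figure D4:**
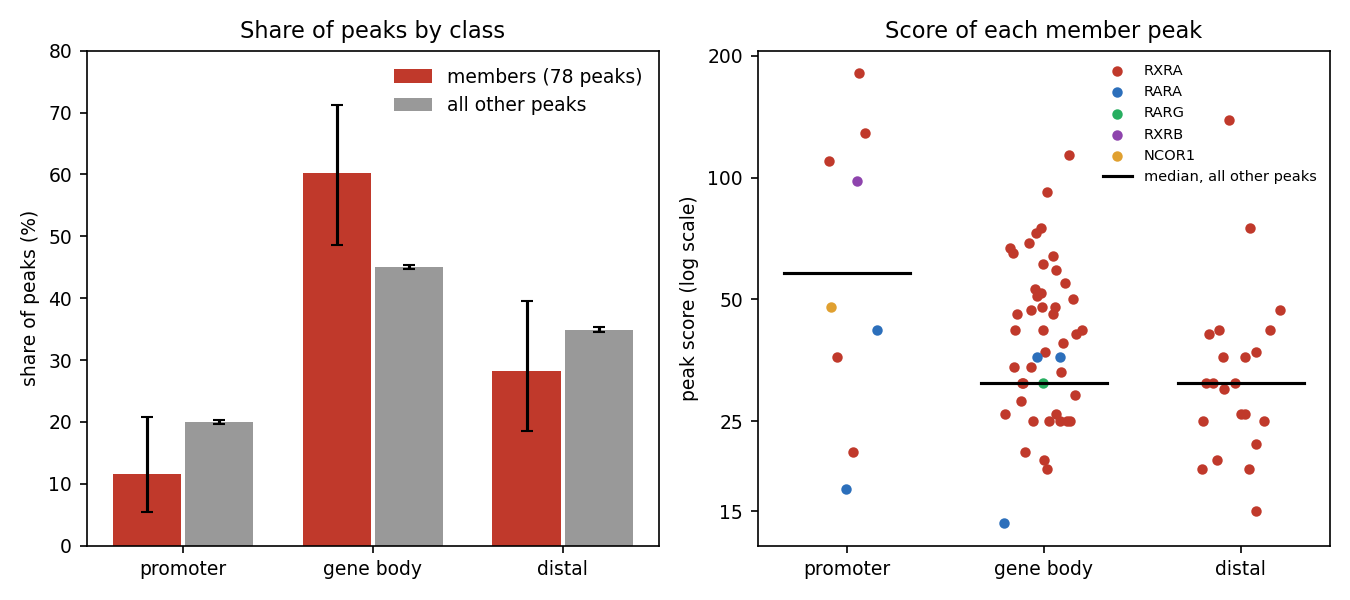
Left, share of peaks in each class (%, y axis) for the 78 member peaks and for all other peaks, with exact 95% binomial intervals that cover counting error only; right, score of each member peak (log scale), coloured by gene, with a black line at the median of all other peaks of the class. Member peaks were in gene bodies in 60.3% of cases, and the promoter points spread from 17 to 181.

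The member windows under a peak had a higher median CpG ratio than those without one, but about the same median G and C content. RefSeq gives 15 windows for the 7 genes, of which 6 were overlapped by a peak, against 40.2% of 35116 windows in all. None of the 15 stands at the third RXRA TSS, which lies under a peak, or at the RARG TSS inside the gene. The 6 belong to RXRA, RXRB, NCOR1 and the first TSS of RARA, and the RXRB pair overlaps itself. Their median G and C content was 62.3%, against 62% for the 9 member windows without a peak; over all genes it was 68% under peaks and 50% elsewhere. Their median ratio of observed to expected CpG was 0.853, against 0.452 in the 9 without. The same ratio over all genes was 0.854 and 0.288. The RXRA windows lie far apart: the first has 84% G and C and a CpG ratio of 1.25, and the second, under the highest peak, has 64.7% and 0.255. The RARB window at the gene start and that of RXRG have 76.3% and 62% G and C and CpG ratios of 0.771 and 0.972. Neither has a peak within 50 kb, so a window rich in G and C did not always hold a peak. The CpG ratios of windows with and without a peak thus overlapped.

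**Figure D5:**
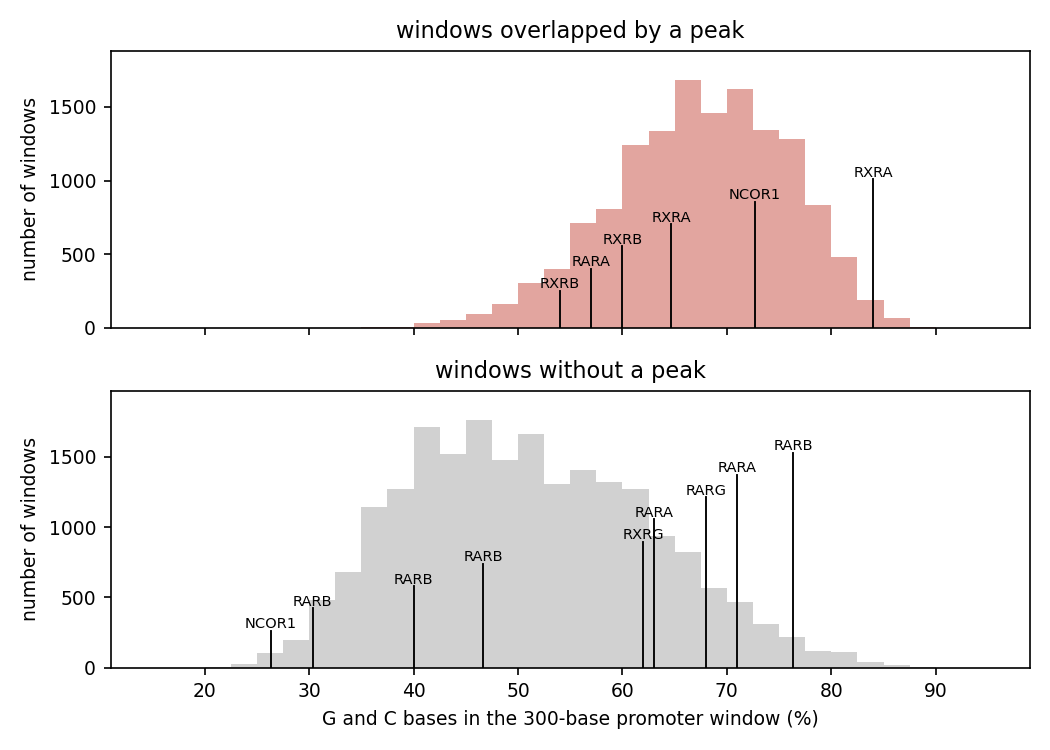
G and C content of RefSeq promoter windows of 300 bases (%, x axis) for windows overlapped by a peak (upper panel) and without one (lower panel), with the number of windows on the y axis; labelled lines mark the 15 member windows and their heights carry no value. Member windows under a peak run up to 84% in RXRA, and those without one run from 26.3% in NCOR1 to 76.3% in RARB.

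Apart from the DR5 element, each motif matched in the member windows occurs in 7.26% or more of all windows. The GC box was found in 9 of 15 member windows, against 44.95% of all windows on either strand. AGGTCA was in 3 of 15, at RARA, RARB and RXRG, against 13.8%, and of these only the first RARA window touches a peak. Direct repeats of AGGTCA with 0 to 5 bases between were in 0 of 15, against 0.0712%. The DR5 element with variant hexamers was in 1 of 15, at RARB, against 0.0883% of all windows. It was added after the sequences were seen, so this match is a description and not a sign of enrichment. The YY1 core, also added after the sequences were seen, was in 3 of 15, against 7.38%. These were the overlapping pair of RXRB windows, which share 1 match, and NCOR1, all under a peak. The ETS core was in 2, against 17.2%. The motif of RONIN (THAP11), the promoter-binding zinc-finger protein named in the title of the series, was in none, against 1.75%. The NRF1 motif was also in none, against 5.78%. CCAAT was in 5 (34.6%), TGANTCA, the AP-1 motif, in 1 at NCOR1 (7.71%), and CACGTG, the E-box, in 1 at RARA (7.26%). A match is a string of letters, not a shown binding site, and most peaks of RXRA lie outside these windows.

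Among genes named in the table, other genes tied to retinoid signalling had promoter peaks about as often as genes in general. They were retinoid metabolism and binding genes, retinoic acid targets, other nuclear receptors, corepressors, coactivators and other RARA fusion partners. Of these 126 genes, 100 were named and 82 of them had a promoter peak (82%), against 78.6% of all protein-coding genes named. Over all 126 the share was 65.1%, against 54.5% of all RefSeq protein-coding genes. The pool is mixed: by list, the share of all genes ran from 47.4% (retinoid metabolism) to 100% (fusion partners). Of 19 retinoid metabolism genes, 12 were named and 9 had a promoter peak (75% of those named, 47.4% of all). RDH14 (score 171) and RDH10 (120), both retinol dehydrogenases, and ALDH1A3 (158), which makes retinoic acid, had the highest. CYP26B1, which degrades retinoic acid, had 46 peaks, 34 of them distal, followed by RDH14 with 9. Of 11 binding and uptake genes 8 were named and 7 had a promoter peak (87.5% of those named, 63.6% of all). CRABP2, the cellular retinoic acid binding protein, had a score of 89, RBP4 of 61 and RBP5 of 53. RBP3 had the most peaks, 6. RLBP1 was named without a promoter peak, and RBP2 and RBP7 were among the genes that no peak named.

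Among 42 other nuclear receptor genes 34 were named and 25 had a promoter peak (73.5%, against 78.6% of all protein-coding genes named). The 25 are 59.5% of the 42, against 54.5% of all RefSeq protein-coding genes. NR1H3, the liver X receptor alpha and an RXR partner, had the highest at 245, followed by RORA at 230 and NR3C1, the glucocorticoid receptor gene, at 215. RORA had the most peaks, 24, then NR2F2 with 17 and NR5A1 with 15. RXRA, chosen for its number of peaks, had more peaks named than any of these 42 genes, which restates that choice. VDR, the vitamin D receptor gene and another RXR partner, was the nearest gene of none.

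All 9 corepressor genes named had a promoter peak, against 78.6% of all protein-coding genes named. They are 75% of the 12 on the list, against 54.5% of all RefSeq protein-coding genes. The highest promoter score per gene had a median of 96, against 63 over all protein-coding genes with one. The deacetylase gene HDAC2 had a score of 124 and LCOR 98, and GPS2 had 5 peaks and TBL1X 4. CORO2A, HDAC3 and SIN3B were not named. All 10 coactivator genes named had one, which is 83.3% of the 12 on the list, set against the same 78.6% and 54.5%, with ASXL1 at 340, NCOA2 at 243 and NCOA7 at 238; NCOA7 had 5 peaks, NCOA6 had 3, and EP300 and MED1 were not named. All 13 other fusion partners of RARA in leukaemia were named and had one, again against 78.6% and 54.5%, with a median highest score of 61, against 63. IRF2BP2 (217), BCOR (204) and FIP1L1 (138) had the highest, BCOR had 34 peaks, and IRF2BP2 and FNDC3B had 3 each. Of 27 retinoic acid target genes 22 were named and 17 had one (77.3%, against 78.6%), led by RAI14 (466), RARRES1 (233) and RET (138). The 17 are 63% of the 27, against 54.5%. CYP26B1 with 46, RAI14 with 27 and RET with 20 had the most peaks.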

How the data were processed

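PML was immunoprecipitated from MDA-MB-231 cells and sequenced as paired-end reads beside input, with 2 libraries each. Per the submitters' processing notes, the build was hg38 and the tools were HOMER 4.11.1, MACS2 2.1.1.20160309, Picard 2.0.1, Trimmomatic 0.36 and BWA 0.7.12, given without settings or order. Per the labels the duplicates were merged; the deposited table holds 1 row per peak with a score, positions and a distance to the nearest TSS in bp. The deposited score has no stated scale and was used only to describe and rank peaks. Depth per library is unknown.

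Member peaks are those whose gene column names a member. Promoter peaks were centred within 1000 bp of a TSS, gene body peaks elsewhere outside the intergenic class, and distal peaks were intergenic. Gene limits and promoter windows came from RefSeq (GRCh38.p14); all 7 members matched by symbol. Motifs were searched on both strands; the YY1 core, and the DR5 element with variant hexamers, were added after the sequences were seen. The members and gene lists were chosen with earlier results of these data known. No test was run. Of each list, the 3 genes with the highest promoter score and the 3 with the most peaks are named, with fewer where counts tie, and members without a promoter peak where at most 5. Some genes that this rule names are not reported here. VDR, ADGRB1 and ZC3H3 were picked after their values were seen. The counting steps were tested on simulated data. Python 3.11.15, numpy 2.4.6, pandas 2.3.3, scipy 1.17.1 and matplotlib 3.10.9 were used.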

Additional observations from a re-analysis of the deposited data

How the results depend on the processing

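No paired analysis was possible because the duplicates were merged before the list was made and no result comes from a test, and no replicate could be left out. Of 77 recomputed values, 50 stayed within their error or within 1.5 times and 27 moved. Part of the 50 was fixed in advance and shows no stability. The promoter window cannot change the number of peaks of a gene. RARB and RXRG, without peaks, cannot gain any when peaks are dropped or merged. With the 5000 highest-scoring peaks, the members with a promoter peak became 2 and their peaks 6, with shares of 66.7% at promoters, 16.7% in gene bodies and 16.7% distal; RXRA then had 5 peaks and RARA none. With peaks scoring at or above the median the members had 46 peaks. With peaks less than 1000 bp apart counted once they had 40 (RXRA 32), with 40% in gene bodies and 42.5% distal. With a 5000 bp promoter window 28.2% were at promoters and 46.2% in gene bodies, and RARG became the fifth member with a promoter peak. Counted by position, within the gene or 5000 bp around it, RARA had 8 and RXRA 57 peaks, with 80% in gene bodies and 4.29% distal. The share of genes with a promoter peak was 54.5% among all RefSeq protein-coding genes. For the 126 pooled pathway, cofactor, fusion partner and nuclear receptor genes it was 65.1% when those not named counted as without. It was 92% of those named with the 5000 bp window. No share of all genes was computed at that window, so neither this value nor the count of members has a background there. The 78.6% of all protein-coding genes named is for 1000 bp. Fewer peaks, other limits or another count of genes are the construction of each of these changes.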

Other observations

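Among protein-coding genes, the counts of promoter, gene body and distal peaks were most like those of RXRA (5, 43 and 22) in GNA12, DYSF, IQSEC1, HPCAL1 and RASA3. The measure was the Euclidean distance over the 3 classes of log2(count + 1) in the 1 merged list. GNA12, which encodes a G protein alpha subunit, was nearest at 0.88, with 3 promoter, 29 gene body and 17 distal peaks. DYSF, the gene of the muscle membrane repair protein dysferlin, had 2, 36 and 22 (distance 1.03). IQSEC1, an ARF guanine nucleotide exchange factor gene, had 3, 35 and 40 (1.06). HPCAL1, a neuronal calcium sensor gene, had 2, 26 and 14 (1.37), and RASA3, a RAS GTPase-activating protein gene, 2, 35 and 9 (1.59). Inside the gene these 5 held 1.54 (DYSF) to 3.42 (RASA3) peaks per 10 kb, against 4.56 in RXRA.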
